A study of Mus musculus with 6 samples.

Results

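Endothelial lipase (Lipg) and 8 genes of lipid handling around the liver X receptor (LXR) were followed in liver myeloid cells 3 hours after concanavalin A. The 9 genes are Lipg, Lpl, Lipa, Nr1h3, Abca1, Abcg1, Apoe, Mylip and Cd36, of 19938 genes measured. They were picked by name, with differences between the groups of this same experiment already known, and each was read from the array row annotated to that gene alone, which was 1 row per gene. Their differences are therefore described here without a test.

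Liver cells positive for CD11b and Gr-1 had been sorted from C57BL/6 mice bearing tumours of EL4, a mouse lymphoma line, and the labels name them myeloid-derived suppressor cells, which comprise immature monocytic and granulocytic cells. Type IV Concanavalin A (Con A), a jack bean lectin that stimulates T cells and injures the liver, was given to the mice of 3 arrays. PBS was given to the mice of the other 3, which the labels also call untreated. The labels give the Con A dose as 12.5 mg/kg in one place and 12.5 ug/kg in another, and they state 3 mice per group without tying each array to 1 mouse, so the spread between arrays may be partly technical. All 6 arrays therefore share the strain, the EL4 tumour, the organ and the sort.

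LXRs are nuclear receptors that bind oxysterols and, paired with a retinoid X receptor (RXR), switch on genes that move cholesterol out of macrophages. Their textbook targets include the exporters Abca1 and Abcg1, the lipid acceptor Apoe, lipoprotein lipase and Mylip, a ubiquitin ligase that removes the LDL receptor. In macrophages the supply side is made up of lipases, which release fatty acids and cholesterol from lipoproteins or lysosomes, and of scavenger receptors such as Cd36.

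Each level is a log2 expression value, means carry the SD over n = 3 arrays, and the medians of the arrays ran between 7.05 and 7.08. No detection calls came with the values, so a low level does not show whether a gene was expressed, and precision is limited by having 6 arrays. The sort genes Itgam (CD11b) and Ly6g were high on all arrays. Itgam lay between 12.73 and 12.80 after Con A and between 12.76 and 13.06 after PBS. Ly6g lay between 13.46 and 13.57 after Con A and between 13.51 and 13.69 after PBS. Ly6c2, also planned as a sort gene, was not among the genes measured. Of 19938 genes, 915 were higher and 1440 lower after Con A by limma after Benjamini-Hochberg adjustment. Leaving out PBS replicate 1 brought that total of 2355 to 1140, leaving out Con A replicate 2 to 1272, and leaving out Con A replicate 3 to 1480. PBS replicate 3 had the lowest weight when arrays were weighted by how well they fitted their group, at 0.527, against 0.824 to 1.31 for the others. Con A replicate 2 had the highest mean level of 17 hepatocyte markers, at 7.93, against 7.32 to 7.39 on the other 5 arrays, and 0 of these markers passed the test. Those with the largest differences were Alb and Fgb, at 0.86 and 0.52. Of 16 granulocytic markers 0 rose and 2 fell, Mmp9 by 0.58 and Padi4 by 0.55, and of 17 T, NK and B cell markers 0 rose and 1 fell, Ms4a1 by 0.45. Padi4 and Ms4a1 lost their calls in 5 and 4 of 6 single-array omissions.

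After Con A, Lipg was far higher, and Nr1h3, Abcg1, Lipa and Mylip were lower on every array. The groups did not overlap in these 5 of the 9 genes, 1 of them higher and 4 lower, where the groups of 29.9% of all genes did not overlap. Lpl, Abca1, Apoe and Cd36 overlapped between the groups. The median difference of the 9 genes was -0.58, against 0.02 over all genes, a value the choice of genes bears on.

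**Figure D1:**
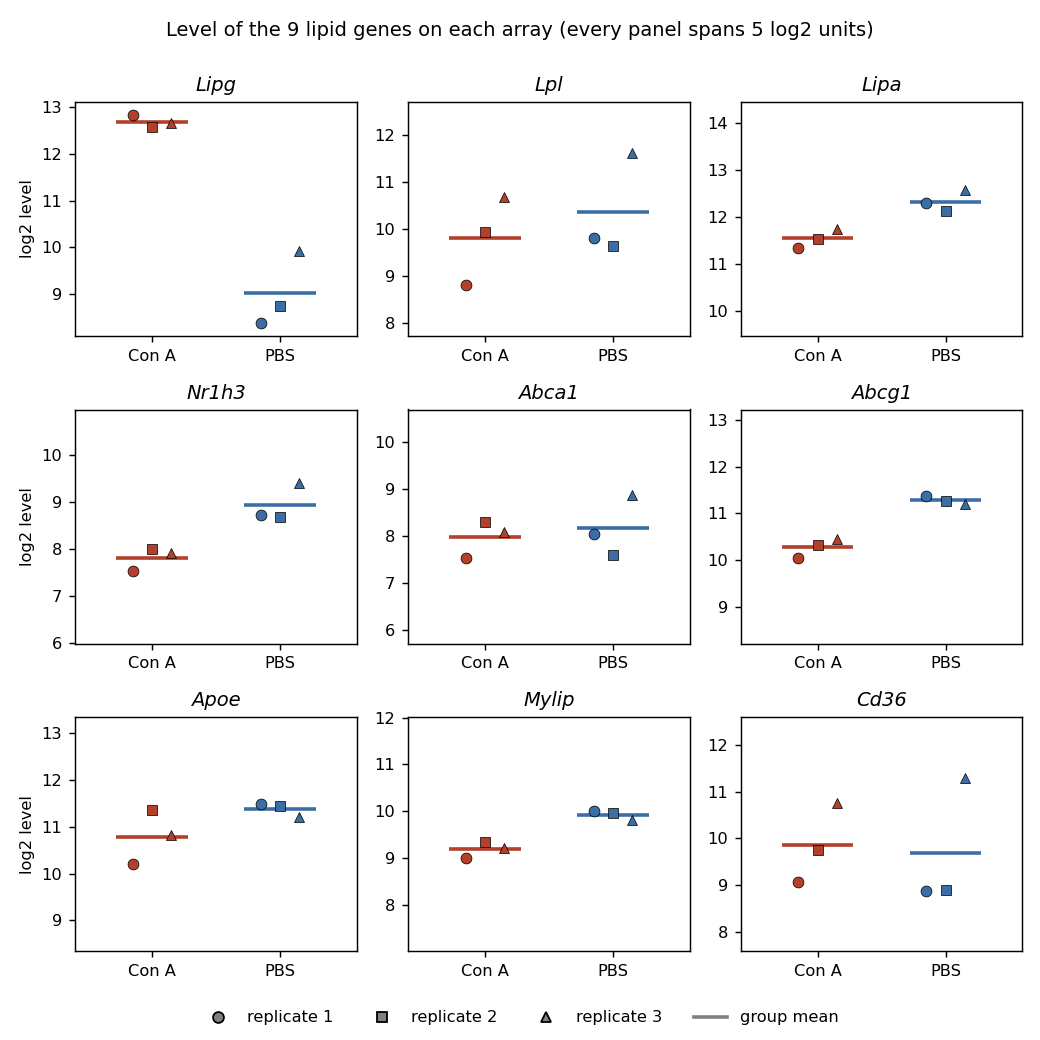
Log2 level (y) of the 9 genes on each of the 6 arrays, Con A left and PBS right; circles, squares and triangles are replicates 1, 2 and 3, lines are group means, and each panel has its own axis of equal span. Lipg lies at 12.565 or above after Con A and at 9.93 or below after PBS, and PBS replicate 3 is the highest PBS array for Lipg, Lpl, Lipa, Nr1h3, Abca1 and Cd36.

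Lipg (probe set 10459772) encodes a secreted lipase that acts mainly on the phospholipids of high-density lipoprotein and is best known from endothelial cells. Its level was 12.83, 12.565 and 12.65 on the Con A arrays, against 8.39, 8.75 and 9.93 on the PBS arrays. The Con A arrays lay close together and the lowest of them stood 2.635 above the highest PBS array. The mean was 12.68 ± 0.14 after Con A and 9.02 ± 0.81 after PBS, a difference of 3.66 (95% interval 2.83 to 4.48) or 12.6-fold. Most of the spread was on the PBS side, where replicate 3 stood 0.91 above the group mean. Without that array the difference was 4.11, and with any other array left out it lay between 3.34 and 3.72.

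Liver endothelial markers were measured because Lipg is known from those cells. Of 18 markers, 1 rose and 1 fell. Their mean level lay between 6.78 and 7.03 after Con A and between 6.78 and 6.84 after PBS, so the groups overlapped. Cdh5, the cadherin of endothelial junctions, stood at 6.59, 8.21 and 7.14 after Con A and at 6.61, 6.98 and 6.80 after PBS. Kdr, the VEGF receptor of endothelium, stood between 6.13 and 6.36 after Con A and between 6.25 and 6.37 after PBS. The marker that rose was Pecam1, which leukocytes also carry, by 1.55 (adjusted p = 0.00176 by limma), and Lyve1 fell by 1.335 (adjusted p = 0.0111 by limma, 0.0598 with PBS replicate 1 omitted and 0.0558 with Con A replicate 2 omitted).

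Markers of eosinophils, basophils and mast cells were, like Lipg, higher after Con A, and 5 of 12 rose and 0 fell. Their mean level was 8.84, 8.22 and 9.09 on the Con A arrays and 7.52, 8.12 and 7.93 on the PBS arrays. It was highest on Con A replicate 3 and PBS replicate 2, whereas Lipg was highest on Con A replicate 1 and PBS replicate 3. Both were lowest on Con A replicate 2 and PBS replicate 1. Kit, the stem cell factor receptor, rose by 1.43 (adjusted p = 0.00176 by limma). The other 4, Epx, Prg2, Gata2 and Siglecf, lost their calls without PBS replicate 1, PBS replicate 3, Con A replicate 1 or Con A replicate 3 (adjusted p reaching 0.164 for Gata2 by limma). Epx and Prg2 also lost them with the replicate number as a block, and Epx, Prg2 and Gata2 with a trended robust prior. The part of these cells in the level of Lipg was not tested.

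The 5 genes whose values over the 6 arrays ran most like those of Lipg were Art3, Zswim7, Idi1, Ube2l6 and Lgals8. They were picked from 1641 genes with a range of at least 1, leaving out predicted genes, unnamed clones and small RNAs, and their Pearson correlations lay between 0.996 and 0.998. All 6 points come from the same arrays in 2 groups, and the 5 genes share with Lipg a higher Con A group and a high PBS replicate 3. Idi1, an enzyme of cholesterol synthesis, stood at 11.20, 11.00 and 11.19 after Con A, against 9.62, 9.78 and 10.13 after PBS.

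Lpl (probe set 10572130) encodes lipoprotein lipase, which releases fatty acids from triglyceride-rich lipoproteins and is related in sequence to endothelial lipase. Its level was 8.80, 9.93 and 10.67 on the Con A arrays, against 9.82, 9.64 and 11.63 on the PBS arrays. The groups overlapped across most of their range, with the lowest array in the Con A group and the highest in the PBS group. The difference was -0.56 (95% interval -2.00 to 0.89). Omitting Con A replicate 1 gave -0.06 and omitting PBS replicate 3 gave 0.08, so its sign rested on single arrays.

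Lipa (probe set 10467139) encodes lysosomal acid lipase, which frees cholesterol and fatty acids from lipoproteins taken up into lysosomes. Its level was 11.34, 11.53 and 11.74 on the Con A arrays, against 12.30, 12.12 and 12.57 on the PBS arrays. Every Con A array lay below every PBS array, by at least 0.38. The mean was 11.54 ± 0.20 after Con A and 12.33 ± 0.23 after PBS, a difference of -0.79 (95% interval -1.12 to -0.46), which makes PBS 1.73-fold higher. With 1 array left out the difference ran between -0.90 and -0.67. The 3 lipases thus differed in 3 ways, with Lipg higher, Lipa lower and Lpl overlapping.

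Nr1h3 (probe set 10484987) encodes LXR alpha, the LXR form that macrophages and liver induce. Its level was 7.54, 7.99 and 7.92 on the Con A arrays, against 8.72, 8.69 and 9.42 on the PBS arrays. The groups were 0.69 apart at their nearest arrays. The mean was 7.82 ± 0.24 after Con A and 8.94 ± 0.41 after PBS, a difference of -1.13 (95% interval -1.63 to -0.63), which makes PBS 2.18-fold higher. Without PBS replicate 3, the highest array, the difference was -0.89. The 5 genes most like Nr1h3 over the 6 arrays, by the same rule, were Shtn1, Utp25, Plxdc1, Fos and Ticam2, with correlations between 0.987 and 0.998.

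Abca1 and Abcg1 encode transporters that load cholesterol onto apolipoproteins and high-density lipoprotein, and of the pair only Abcg1 had groups that did not overlap. Abcg1 (probe set 10443730) was at 10.06, 10.32 and 10.46 on the Con A arrays, against 11.38, 11.28 and 11.20 on the PBS arrays. Each Con A array lay at least 0.735 below each PBS array. The mean was 10.28 ± 0.21 after Con A and 11.28 ± 0.09 after PBS, a difference of -1.01 (95% interval -1.28 to -0.74), which makes PBS 2.01-fold higher. With 1 array left out it ran between -1.10 and -0.90.

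Abca1 (probe set 10512949) was at 7.53, 8.29 and 8.08 on the Con A arrays, against 8.04, 7.59 and 8.87 on the PBS arrays. The lowest array was Con A replicate 1 and the highest was PBS replicate 3, with the other 4 arrays mixed between the groups. The difference was -0.20 (95% interval -0.96 to 0.56), and omitting PBS replicate 3 gave 0.15, while omitting Con A replicate 1 gave 0.02. LXR is a known activator of both exporters. The difference between the 2 genes was not tested.

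Of the 9 genes, 6 could be searched for the LXR element near the start site, and of these Abca1 held it. Abca1 is printed here with 2 other LXR targets that hold the same element. They were the 2 matches among 17 further listed LXR targets with a window (11.8%). The element, called DR4, is a direct repeat of a nuclear receptor site with a 4-base spacer. It was searched on both strands as GGTNA, any 5 bases and GGTNA in the 250 bases before each start site, with sequences from RefSeq on GRCm38.p6. Windows were matched for 6 of the 9 genes, and 1 of these 6 held a match. Lipg, Lpl and Abcg1 had no window, so whether they hold the element was not examined. Of 27025 genes with a window, 0.707% held one. The repeat with a 1-base spacer that PPARs bind, called DR1 and searched as GGTNA, any 2 bases and GGTNA, was in 0 of the 6 windows and in 1.08% of all genes. Capitals mark the match, which lies on the opposite strand in all 3 windows. The windows lie on the minus strand at chr4:53159896-53160145 for Abca1, chr11:60210472-60210721 for Srebf1 and chr11:120824548-120824797 for Fasn.
Abca1: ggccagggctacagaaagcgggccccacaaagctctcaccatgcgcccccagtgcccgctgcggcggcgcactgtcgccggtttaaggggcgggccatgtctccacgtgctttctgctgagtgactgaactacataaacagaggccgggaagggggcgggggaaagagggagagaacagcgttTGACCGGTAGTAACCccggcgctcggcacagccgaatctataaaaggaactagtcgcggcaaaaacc
Srebf1: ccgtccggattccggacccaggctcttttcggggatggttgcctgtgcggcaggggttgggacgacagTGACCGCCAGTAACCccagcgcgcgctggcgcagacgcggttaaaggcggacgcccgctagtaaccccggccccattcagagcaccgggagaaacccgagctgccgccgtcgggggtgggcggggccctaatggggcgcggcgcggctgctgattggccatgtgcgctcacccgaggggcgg
Fasn: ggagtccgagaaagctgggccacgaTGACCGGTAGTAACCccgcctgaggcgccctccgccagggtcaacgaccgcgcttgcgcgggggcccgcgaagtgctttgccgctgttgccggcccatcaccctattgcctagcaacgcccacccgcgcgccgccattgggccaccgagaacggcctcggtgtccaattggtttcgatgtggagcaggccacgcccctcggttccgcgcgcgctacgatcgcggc

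The match began 67 bases before the start site in Abca1, 182 in Srebf1 and 225 in Fasn, and its 15 letters were the same in Abca1 and Fasn. Srebf1 and Fasn, the lipogenic factor SREBP1 and fatty acid synthase, are named because of these letters and were chosen after their values were seen. Srebf1 stood at 8.87 ± 0.13 after Con A and 8.86 ± 0.05 after PBS, a difference of 0.01 (95% interval -0.19 to 0.21). Fasn stood at 9.04 ± 0.25 after Con A and 8.89 ± 0.15 after PBS, a difference of 0.15 (95% interval -0.17 to 0.48). By limma their adjusted p was 0.968 and 0.569, past no threshold, and all 3 genes overlapped between the groups. The letters alone do not show that a factor bound there.

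Apoe (probe set 10560624) encodes apolipoprotein E, which macrophages secrete as a cholesterol acceptor. Its level was 10.195, 11.36 and 10.82 on the Con A arrays, against 11.49, 11.43 and 11.20 on the PBS arrays. Con A replicate 2 lay among the PBS arrays and the other 2 Con A arrays lay below them. The difference was -0.58 (95% interval -1.20 to 0.03). Omitting Con A replicate 1 gave -0.28 and omitting Con A replicate 2 gave -0.87, so the size moved with the Con A arrays more than with the PBS arrays.

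Mylip (probe set 10404874) encodes the ligase also called IDOL. Its level was 9.01, 9.35 and 9.22 on the Con A arrays, against 10.01, 9.95 and 9.82 on the PBS arrays. All Con A arrays lay at least 0.465 below all PBS arrays. The mean was 9.20 ± 0.17 after Con A and 9.93 ± 0.10 after PBS, a difference of -0.73 (95% interval -0.98 to -0.48), which makes PBS 1.66-fold higher. With 1 array left out it ran between -0.81 and -0.64, the narrowest such range of the 9 genes.

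Cd36 (probe set 10528207) encodes a scavenger receptor that takes up oxidised lipoprotein and fatty acids. Its level was 9.065, 9.75 and 10.77 on the Con A arrays, against 8.88, 8.905 and 11.29 on the PBS arrays. The PBS group held both the lowest arrays and the highest, and the Con A arrays lay between them. The difference was 0.165 (95% interval -1.46 to 1.79), and leaving out single arrays gave values between -0.29 (Con A replicate 3 removed) and 0.97 (PBS replicate 3 removed). Cd36 and Lpl had the widest PBS ranges of the 9 genes, at 2.41 and 1.99.

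**Figure D2:**
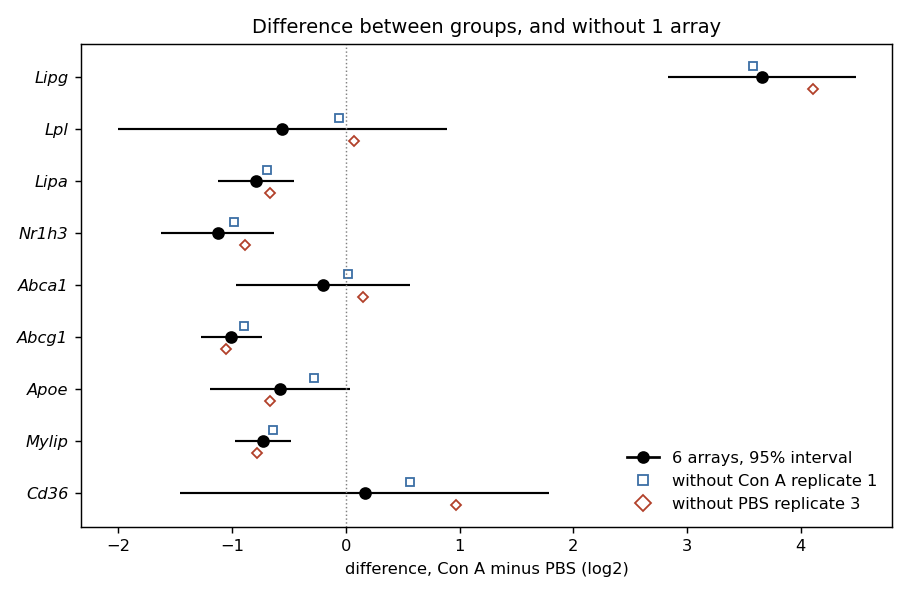
Difference in log2 level, Con A minus PBS (x), for each of the 9 genes, with the 95% interval of the moderated fit (filled circles and bars) and the difference without Con A replicate 1 (squares) or without PBS replicate 3 (diamonds). Lipg stays above 3.5 in all 3 versions, Lipa, Nr1h3, Abcg1 and Mylip stay below 0, and Abca1 changes sign without either array.

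Within each group, single arrays were often lowest or highest for several of the 9 genes at once. Con A replicate 1 was the lowest Con A array for 8 of them, all but Lipg. PBS replicate 3 was the highest PBS array for 6 (Lipg, Lpl, Lipa, Nr1h3, Abca1 and Cd36) and the lowest for the other 3 (Abcg1, Apoe and Mylip). After each value was set against its group mean, Lpl correlated with Cd36 at 0.976, with Lipa at 0.966 and with Nr1h3 at 0.934 over the 6 arrays, and Apoe correlated with Mylip at 0.960. Lpl with Apoe stood at 0.211 and Cd36 with Mylip at -0.170. These correlations describe genes read from the same 6 arrays, and the genes were chosen together.

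Levels of cell type markers are given beside these genes. In bulk samples, fewer cells of a type and less RNA per cell cannot be told apart. The mean level of 12 dendritic cell markers was 7.51, 7.71 and 8.18 on the Con A arrays. It was 7.55, 7.52 and 8.11 on the PBS arrays, and was highest on replicate 3 of both groups, as were Lpl, Lipa and Cd36. Of these 12 markers 0 rose and 1 fell, Wdfy4 by 0.66, a call lost without PBS replicate 1 or Con A replicate 2 (adjusted p = 0.0115 in the fit of all arrays and up to 0.0581 by limma). Cd209a, a lectin of monocyte-derived dendritic cells, stood at 9.14, 9.37 and 11.515 after Con A and at 9.20, 9.17 and 11.13 after PBS. Flt3, the growth factor receptor of classical dendritic cells, stood between 6.72 and 6.84 after Con A and between 6.79 and 6.90 after PBS. The part of such cells in the levels of Lpl, Lipa and Cd36 was not tested.

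Kupffer cells, the resident macrophages of the liver, express LXR alpha and Apoe. The mean level of 15 Kupffer cell markers was 8.14, 9.49 and 8.74 on the Con A arrays. On the PBS arrays it was 8.27, 8.52 and 8.76. This mean was lowest on Con A replicate 1 and highest on Con A replicate 2. Within the Con A group Apoe, Nr1h3, Abca1 and Mylip had the same lowest and highest array. The order of this mean on the PBS arrays was opposite to that of Apoe and Mylip. PBS replicate 3 was highest for the mean and for Nr1h3 and Abca1, and lowest for Apoe and Mylip. Single markers differed, since Vsig4, Clec4f and Timd4 were highest on PBS replicate 2 and Spic on PBS replicate 3. Hepatocytes also express Apoe, and Alb stood at 9.01, 11.17 and 9.095 after Con A and at 8.69, 8.92 and 9.09 after PBS, highest on Con A replicate 2 as well. Vsig4, a complement receptor of Kupffer cells, stood at 6.95, 10.12 and 8.35 after Con A and at 6.47, 7.87 and 7.38 after PBS. Of the 15 markers 0 rose and 1 fell, which was the iron exporter Slc40a1, by 1.19 (adjusted p = 0.000561 by limma). Monocytic markers ran lower after Con A together with Nr1h3, Abcg1, Lipa and Mylip. Of 14 such markers 2 rose and 4 fell, with a mean level between 10.22 and 10.65 after Con A and between 10.86 and 11.22 after PBS. F13a1, Ccr2 and Cx3cr1, known from circulating monocytes, fell by 2.16, 2.00 and 1.81 (adjusted p between 0.000808 and 0.00177 by limma). The 2 that rose were Irf8, a transcription factor of monocytes and dendritic cells, by 0.98 and Cd14, a lipopolysaccharide receptor, by 0.82 (adjusted p = 0.0189 and 0.017 by limma). Irf8 lost its call in 4 and Cd14 in 3 of 6 single-array omissions (adjusted p reaching 0.0807 and 0.0787 by limma). The part of Kupffer cells, hepatocytes and monocytes in the lower members was not tested.

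**Figure D3:**
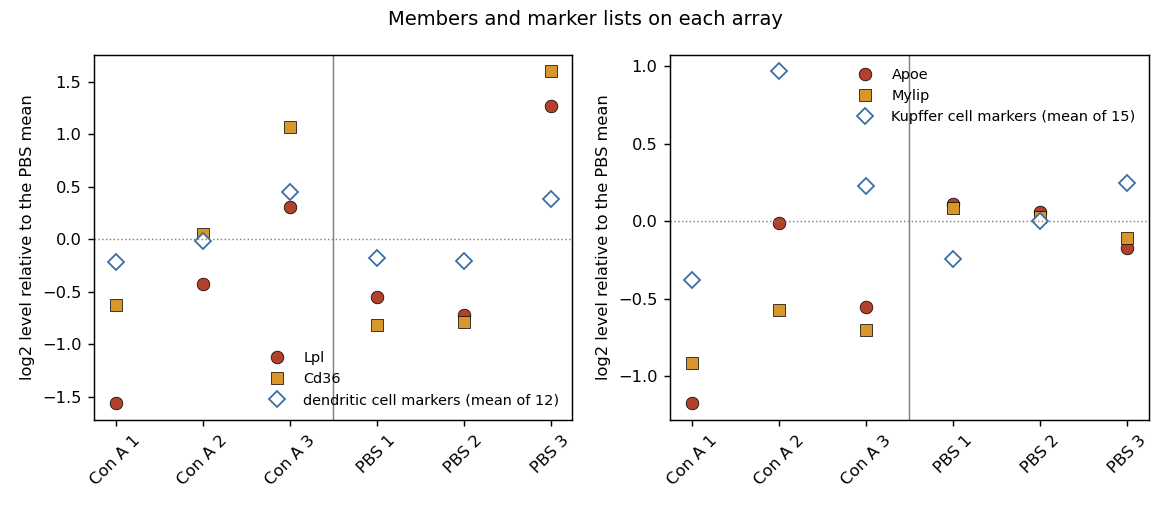
Log2 level relative to the PBS mean (y) on each array (x), for Lpl and Cd36 with the mean of 12 dendritic cell markers (left) and for Apoe and Mylip with the mean of 15 Kupffer cell markers (right). On the left all 3 are high on PBS replicate 3 and Con A replicate 3. On the right Apoe, Mylip and the Kupffer marker mean are lowest on Con A replicate 1, and Mylip stays below 0 on all Con A arrays.

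Other genes of the same pathways were then counted in 8 lists of textbook genes, of which 160 of 180 genes were measured. In the fit over all genes, 4.59% of genes were called higher and 7.22% lower after Con A. Over the 8 lists 24 genes rose and 25 fell, with a median difference of 0.03 against 0.02 over all genes.

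Partners of Nr1h3 leaned lower. Of 14 measured RXR genes and LXR cofactors 0 rose and 3 fell, the median was -0.24 and 12 of the 14 differences were negative. Tbl1xr1, a subunit of the corepressor complex, fell by 0.74 (adjusted p = 0.00243 by limma). Rxrb, an RXR form, and Ncoa3, a coactivator, fell by 0.44 and 0.34, and their calls ended in 4 and 5 of the 6 single-array omissions, where the adjusted p reached 0.133 and 0.126 by limma. The count of 3 was 1 without Con A replicate 1, Con A replicate 2, PBS replicate 1 or PBS replicate 2.

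Further LXR targets, beside the members, did not move one way. Of 22 measured, 1 rose (4.55%) and 2 fell (9.09%), with a median of -0.05. Smpdl3a, a phosphodiesterase, fell by 0.43, at 11.88 ± 0.07 after Con A and 12.30 ± 0.03 after PBS (adjusted p = 0.00951 by limma). Tgm2, a transglutaminase, rose by 0.91 (adjusted p = 0.0159 by limma, 0.0736 with Con A replicate 2 omitted, 0.0701 with PBS replicate 1 omitted and 0.0626 with Con A replicate 3 omitted). The transporter gene Abca7 fell by 0.40 and lost its call in 5 of 6 single-array omissions (adjusted p as high as 0.143 by limma). The count of 3 was 1 without Con A replicate 2 or PBS replicate 1.

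Among lipase relatives and regulators of lipases, 2 of 24 rose and 2 fell, with a median of -0.005. Furin, a proprotein convertase known to cleave both endothelial and lipoprotein lipase, rose by 0.79, at 11.91 ± 0.13 after Con A and 11.12 ± 0.09 after PBS (adjusted p = 0.00243 by limma). G0s2 and Abhd5, an inhibitor and a coactivator of adipose triglyceride lipase, fell by 0.705 and 0.66, and Pnliprp1 rose by 0.37. Abhd5 and Pnliprp1 each lost the call in 5 of 6 such omissions (adjusted p reaching 0.111 and 0.121 by limma). The count of 4 was 2 without Con A replicate 3, PBS replicate 1 or PBS replicate 2.

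Enzymes that make or consume oxysterols, the ligands of LXR, included 2 of 12 that rose and 1 that fell. Cyp27a1, a mitochondrial enzyme that makes an oxysterol ligand of LXR, fell by 0.83, at 7.025 ± 0.09 after Con A and 7.85 ± 0.07 after PBS (adjusted p = 0.00135 by limma). Ch25h, which makes another oxysterol in activated macrophages, rose by 0.91, at 6.87 ± 0.49 after Con A and 5.96 ± 0.10 after PBS (adjusted p = 0.039 by limma). Its call was lost without PBS replicate 1, Con A replicate 2 or PBS replicate 2 (adjusted p up to 0.129 by limma). Cyp11a1, which cleaves the cholesterol side chain, rose by 1.68. The call was lost without PBS replicate 1, Con A replicate 3 or Con A replicate 1 (adjusted p up to 0.0958 by limma). Within the groups Cyp11a1 was lowest on Con A replicate 2 and highest on PBS replicate 2. So was the mean of the eosinophil, basophil and mast cell markers. The part of those cells in the level of Cyp11a1 was not tested. The count of 3 was 1 without PBS replicate 1.

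The list with the most rises was cholesterol synthesis, which the factor SREBP2 drives when sterols are low. Of 23 measured genes 12 rose (52.2%) and 1 fell (4.35%), with a median of 0.56. Idi1 rose by 1.29, Hsd17b7 by 1.09, Lss by 1.00 and Hmgcs1, the synthase at the head of the pathway, by 0.95, with adjusted p between 0.000827 and 0.00868 by limma. Hmgcs1 stood at 11.28, 11.085 and 11.155 after Con A, against 10.21, 10.22 and 10.25 after PBS. Of the 13 calls, 10 held whichever of the 6 arrays was omitted. The single fall was Mbtps1, the protease that activates SREBPs, by 0.44 (adjusted p = 0.0148 by limma, and up to 0.0673 without PBS replicate 1, Con A replicate 2 or Con A replicate 3). Srebf2 itself differed by 0.26 (95% interval 0.04 to 0.48, adjusted p = 0.13 by limma).

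A sterol regulatory element, the site of SREBPs, was searched on both strands as TCACNCCAC in the 250 bases before the start site. It was found in 1.22% of the 27025 genes with a window. It was in 1 of the 21 listed genes of this pathway with a window and in 0 of the 6 members with a window. Hmgcs1 is printed because it held that match. The stretch lies on the plus strand at chr13:119690199-119690237 of GRCm38.p6, 137 to 129 bases before the start site for the capitals that mark the match.
Hmgcs1: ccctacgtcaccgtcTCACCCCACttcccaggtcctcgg

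**Figure D4:**
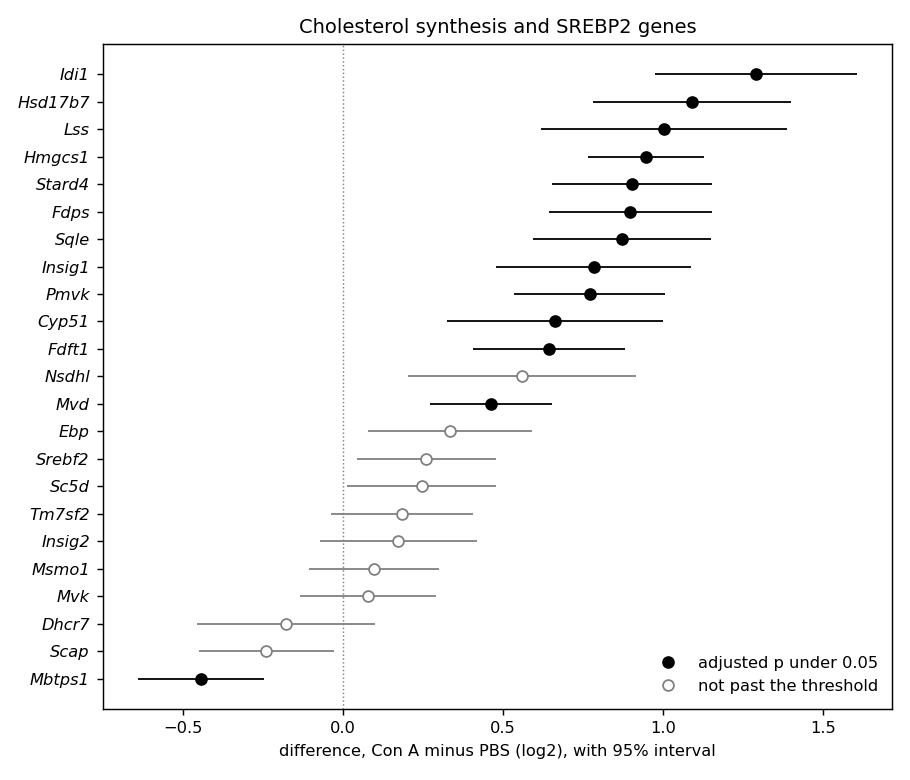
Difference in log2 level, Con A minus PBS (x), with its 95% interval, for the 23 measured genes of cholesterol synthesis and SREBP2 regulation; filled circles passed the test. The 12 risers run from 0.46 for Mvd to 1.29 for Idi1, and Mbtps1 at -0.44 is the single fall.

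Of 21 measured genes that store, release and move cholesterol, 0 rose and 5 fell, while the list median was 0.04. Nceh1, which hydrolyses cholesterol esters, fell by 1.36, at 9.16 ± 0.04 after Con A and 10.52 ± 0.28 after PBS (adjusted p = 0.0015 by limma). Npc1, which exports cholesterol from the lysosomes where Lipa acts, fell by 0.77 (adjusted p = 0.00946 by limma, 0.0509 without PBS replicate 1). The sterol carrier Stard5 fell by 0.63 (adjusted p = 0.00249 by limma). Gramd1a fell by 0.48 and lost its call without PBS replicate 1, Con A replicate 2 or Con A replicate 1 (adjusted p up to 0.0627 by limma). The count of 5 was 3 without Con A replicate 1 or Con A replicate 2 and 2 without PBS replicate 1.

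Genes of scavenger and lipoprotein receptors and of related proteins changed both ways, with 3 of 20 higher and 8 lower. Olr1, the receptor for oxidised LDL called LOX-1, rose by 1.53, at 12.03 ± 0.21 after Con A and 10.50 ± 0.06 after PBS (adjusted p = 0.000782 by limma). The mannose receptor Mrc1 rose by 1.69 (adjusted p = 0.00292 by limma). Clec7a rose by 1.34 and lost its call in 4 of 6 such omissions (adjusted p reaching 0.164 by limma). Lrp1, a large receptor that binds Apoe, fell by 1.27 (adjusted p = 0.0176 by limma, 0.0833 with PBS replicate 1 omitted and 0.0517 with Con A replicate 2 omitted). The count of 11 was 4 with PBS replicate 1 omitted, 5 with Con A replicate 2 omitted and 7 with either Con A replicate 3 or PBS replicate 2 omitted.

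Pparg, the nuclear receptor that activates Cd36 and Lpl in macrophages, rose by 1.80 while both of these genes overlapped between the groups. It stood at 11.17, 11.16 and 11.30 after Con A, against 9.11, 9.02 and 10.10 after PBS (adjusted p = 0.00563 by limma). Like Lipg, it had close Con A arrays and a high PBS replicate 3. Of 28 measured genes of PPARs and fatty acid handling 4 rose and 3 fell, with a median of 0.02. Ppard rose by 0.615 (adjusted p = 0.0109 by limma, 0.0559 without PBS replicate 1), the fatty acid oxidation enzyme Acadl by 0.71 and the lipid droplet protein Plin3 fell by 0.61 (adjusted p = 0.00531 and 0.00994 by limma).

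**Figure D5:**
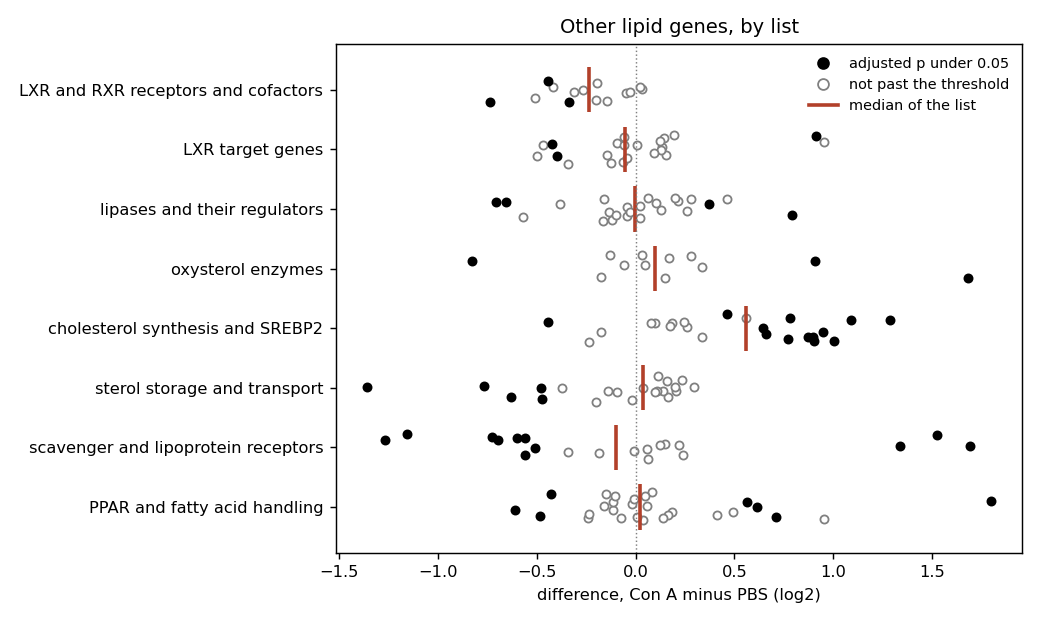
Difference in log2 level, Con A minus PBS (x), of every measured gene in the 8 lists of other lipid genes (rows); filled circles passed the test, open circles did not, and vertical lines are list medians. The cholesterol synthesis list has a median of 0.56 and 12 risers, the LXR and RXR list has a median of -0.24, and the other 6 medians lie between -0.10 and 0.10.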

How the data were processed

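Per the labels' protocols, the RNA of 6 sorted samples was amplified and then carried a biotin label on the arrays. The authors deposited log2 expression values of an Affymetrix gene array, and the submitters' processing notes name RMA and Partek without versions. RMA evens out the arrays and compresses differences at both ends of the scale, so folds there are understated. Of 35556 rows, 21789 had 1 gene symbol, and the row with the highest mean stood for each of 19938 genes. Entrez numbers of 19855 genes matched RefSeq names on GRCm38.p6, with 0 changed symbols. The test of Con A against PBS used limma 3.58.1 under R 4.3.3 on the deposited values (two-sided, Benjamini-Hochberg over all genes, threshold 0.05), which was tested on simulated data. Intervals come from that fit. The members and lists were chosen with earlier results of these data known. Named were all members, up to 4 of the largest called differences per list and the 5 genes most like Lipg and Nr1h3. Defining markers of cell types, Spic, Siglecf, Cd14, Mvd, Mbtps1, Srebf1, Srebf2 and Fasn were added after their values were seen. Promoter windows covered 250 bases before each start site. Tables and plots used Python 3.11.15, pandas 2.3.3 and matplotlib 3.10.9. There were 0 identical pairs of arrays.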

Additional observations from a re-analysis of the deposited data

How the results depend on the processing

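The 9 differences were recomputed with the replicate number as a block, with all rows of a gene averaged, with a minimum mean level of 6, after quantile normalization again, with a trended robust prior and with array weights, and these 54 values moved by less than 1 SD (pooled over the 2 groups of the gene). Array weights moved 3 of the overlapping genes by over 1.5 times, with Lpl at -0.28, Abca1 at -0.07 and Cd36 at 0.56, and put Lipg at 3.898. The counts of called genes, over all genes and in the 8 lists, stayed within 1.5 times in 53 of 54 cases. The exception was the LXR and RXR list, which had 5 calls with array weights against 3. Same-numbered arrays of the 2 groups had deviations that correlated at 0.23, -0.17 and 0.56, so the numbers were not taken to pair the samples; with the replicate block 2539 genes were called, and Rxrb, Ncoa3, Epx and Prg2 lost their calls (adjusted p = 0.0617, 0.0668, 0.0599 and 0.0537 by limma). Outside the left-out arrays, named list genes lost a call in 10 cases and kept their side of the threshold in 265, of which 4 are those, 1 is Abca7 after quantile normalization again (adjusted p = 0.0611 by limma) and 5 are Ch25h, Clec7a, Epx, Prg2 and Gata2 with the trended robust prior (adjusted p = 0.0515, 0.0832, 0.0732, 0.0679 and 0.0526 by limma). With 1 array left out, they lost it in 74 cases and kept their side in 202, and called genes numbered 1140 to 2765 in all. List counts then ran from 1 to 4 for LXR and RXR partners, 1 to 3 for LXR targets, 2 to 5 for lipases, 1 to 3 for oxysterol enzymes, 10 to 13 for cholesterol synthesis, 2 to 7 for sterol storage, 4 to 11 for scavenger receptors and 5 to 8 for PPAR genes. The causes were not tested beyond the smaller number of arrays.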
